A study of Mus musculus with 4 samples.

Results

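The genes described here are Gdf15 and 6 genes of the integrated stress response: Atf4, Ddit3, Trib3, Chac1, Asns and Sesn2. They were picked by symbol from the 53647 genes of the count tables. The 7 symbols have 8 rows, because Ddit3 is listed under a pair of identifiers (ENSMUSG00000025408.16, which holds all its molecules, and ENSMUSG00000116429.2, which holds 0). The set was proposed with values of these data in view, namely levels across myeloid states and other cell types in both antibody groups. Those levels and the antibody differences of the 7 genes are therefore given as a description.

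Single cells came from the spinal cord of aged C57BL/6J mice, 28 days after spinal cord injury, from a 2 mm segment that held the lesion. One group of injured mice had received an anti-CD8 antibody (Anti-CD8, 2 libraries) and the other an IgG antibody (IgG, 2 libraries), and the labels call the 2 libraries of a group biological replicates. The sources used here give neither the antibody dose nor how many mice went into a library. The tissue was dissociated with a neural tissue kit, cleared of myelin with beads and profiled with a 3′ droplet method that counts unique molecular identifiers (UMIs, 1 per captured RNA molecule), and the labels name no sort for a cell type.

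The integrated stress response is the common answer of a cell to amino acid shortage, unfolded protein in the endoplasmic reticulum, mitochondrial damage, haem shortage and double-stranded RNA. Kinases that sense these states phosphorylate the initiation factor eIF2, general translation slows, and the Atf4 messenger is translated more. ATF4 then drives genes for amino acid synthesis and uptake, transfer RNA charging, redox balance and, with CHOP (the product of Ddit3), cell death. GDF15 is a secreted cytokine of the transforming growth factor beta superfamily that ATF4, CHOP and p53 can each induce; its receptor GFRAL, with the co-receptor RET, is known from brainstem neurons. Macrophages and microglia that clear myelin and lipid debris are the abundant phagocytes of an injured cord. Because ATF4 is set largely by translation, an Atf4 UMI measures its messenger and not its activity.

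ATF4 binds amino acid response elements in the promoters of its targets. In the RefSeq promoter windows of build GRCm38.p6 (250 bases before to 50 after a gene's start), the letters TGATGNAA or TGACGNAA, searched on both strands, were found in 3 of the 7 genes, against 6.257% of all 27025 genes with a window and 14 of the 40 other ATF4 target genes with one. The second form shares its first bases with the cyclic AMP response element. Chac1 held a match at -250 and another at -193 from its start, Asns held 1 at -23, and Trib3 held 1 at +14 on the opposite strand. No match lay in the windows of Gdf15, Atf4, Ddit3 and Sesn2, which says only that these letters are not there. The 3 stretches upstream of the starts are shown because they are the only such matches in the set; capitals mark the motif, which lies on the opposite strand in the second Chac1 stretch.
Chac1, chr2:119350992-119351023, plus strand: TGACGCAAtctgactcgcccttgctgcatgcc
Chac1, chr2:119351033-119351080, plus strand: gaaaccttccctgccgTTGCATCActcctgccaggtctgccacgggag
Asns, chr6:7693210-7693248, minus strand: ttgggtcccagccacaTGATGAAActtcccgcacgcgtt

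After filters and removal of likely doublets 27695 cells remained, 6108 to 7816 per library, with median depths of 17284 and 18366 UMIs per cell in Anti-CD8 and 21951 and 20470 in IgG. Library totals were 152457679 to 170539226 UMIs, and any 2 libraries shared 7 to 23 cell barcodes. As a check of the labels, the share of T cells with a Cd8a UMI was 34.3% and 30.0% in Anti-CD8, against 80.1% and 66.3% in IgG. The 30 clusters were grouped into 20 classes by fixed markers. Microglia (11053 cells, 6 clusters) held 5827 to 6641 CPM (UMIs of a gene scaled to a common total per class and library) of the 10 microglia markers and 3176 to 3744 CPM of the 11 monocyte/macrophage markers. In the monocyte/macrophage class (1664 cells) these sums were 2145 to 2752 and 26276 to 29736 CPM. A trio of myeloid classes lay between them and kept the names of their leading genes: Gpnmb-high (2396 cells; microglia markers 3605 to 3908 CPM, macrophage markers 13487 to 17818 CPM), Spp1-high (2249 cells) and Ms4a7-positive (2419 cells). A proliferating class of mixed origin (262 cells) was kept apart. Clustering used Gdf15 among its variable genes and none of the other 6.

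Gdf15 was mainly a myeloid transcript. The level below is its CPM in the UMIs summed over the cells of a class in 1 library. In the monocyte/macrophage class it was 143 and 193 CPM in Anti-CD8, against 274 and 198 CPM in IgG. Gpnmb-high cells held 100.4 and 71.6 CPM in Anti-CD8, against 144 and 143 CPM in IgG. Proliferating cells held 123 and 163 CPM in Anti-CD8, against 56.4 and 50.3 CPM in IgG. Microglia held 98.6 and 86.1 CPM in Anti-CD8, against 87.5 and 116 CPM in IgG. Over all 4 libraries the means were 202 ± 54.0, 115 ± 35.2, 98.2 ± 54.4 and 97.1 ± 13.9 CPM in these classes (SD, n = 4), and their ranges overlapped between neighbours in this order.

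Below them came Spp1-high cells at 52.3 ± 18.0 CPM and Ms4a7-positive cells at 41.3 ± 15.2 CPM (SD, n = 4). No library of either reached the lowest microglial library for Gdf15, and their own ranges overlapped. Spp1-high cells held 37.3 and 40.0 CPM in Anti-CD8, against 55.5 and 76.5 CPM in IgG, and Ms4a7-positive cells 36.4 and 24.8 CPM in Anti-CD8, against 42.7 and 61.2 CPM in IgG. Ependymal cells, which line the central canal, held 24.0 and 29.7 CPM in Anti-CD8 and 16.9 and 34.9 CPM in IgG. Neurons averaged 7.78 ± 1.43 CPM of Gdf15, endothelial cells 8.20 ± 8.16 CPM, T cells 6.35 ± 4.79 CPM and NK cells 2.26 ± 2.62 CPM (SD, n = 4). The 16 neutrophils held no Gdf15 UMI, which allows up to 20.6% of cells with a UMI at this depth (95% exact binomial interval) and says nothing of cells that express it.

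**Figure D1:**
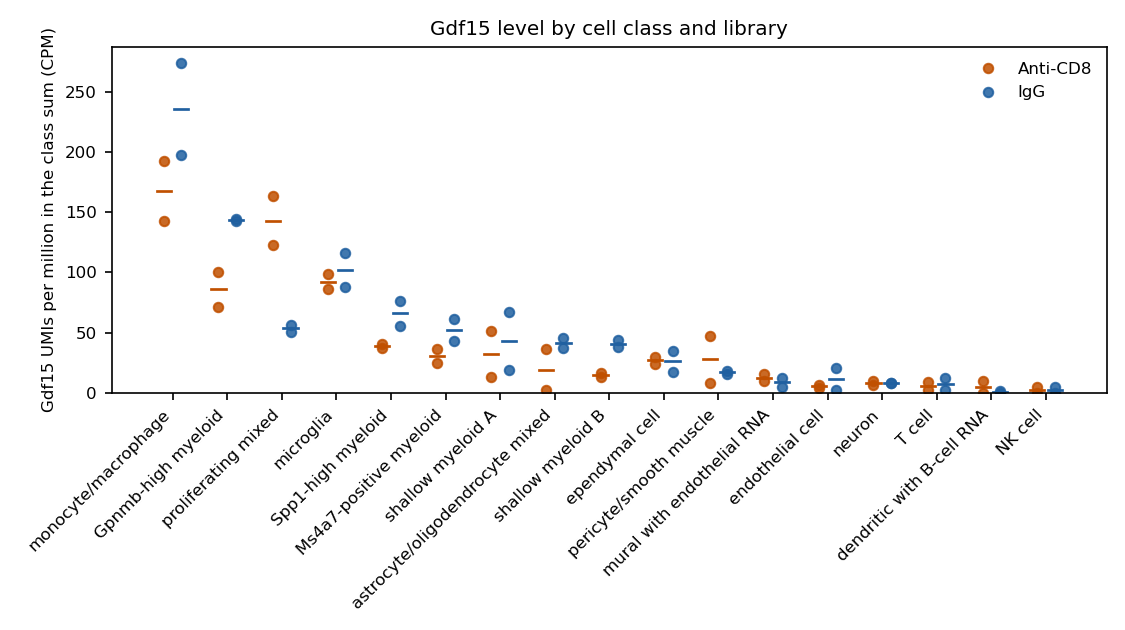
Gdf15 level (y axis, CPM of the class sum) in the classes of at least 200 cells, ordered by mean; each point is 1 library, Anti-CD8 in orange at the left and IgG in blue at the right of each class, and short lines are group means. Monocyte/macrophage, Gpnmb-high, proliferating and microglial cells hold the upper places, and in proliferating cells the Anti-CD8 libraries lie above the IgG ones.

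Read as cells with at least 1 Gdf15 UMI, the share was 45.7% in Gpnmb-high cells (95% exact binomial interval 43.7 to 47.8%), 42.8% in the monocyte/macrophage class (40.4 to 45.2%) and 26.3% in microglia (25.5 to 27.1%). NK and T cells gave 2.35% and 3.12%, and endothelial cells gave 3.63%. Whether these UMIs came from the cells themselves was not tested. Median depths were 29928, 17063 and 19217 UMIs per cell in the first 3 classes, and 8834, 6936 and 15197 UMIs in NK, T and endothelial cells. These intervals cover counting error only. Depth differs between classes, so cells were also thinned to 3000 UMIs. Thinned shares were 21.7% in monocyte/macrophage cells, 17.5% in Gpnmb-high cells, 12.8% in microglia, 8.58% in Ms4a7-positive cells, 8.20% in Spp1-high cells and 7.39% in ependymal cells, against 1.73% in T cells, 0.816% in NK cells and 0.546% in endothelial cells. The order of Gpnmb-high and monocyte/macrophage cells thus turned with thinning and then matched that of the CPM.

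A few cells carried most of the Gdf15 molecules. Among microglia, 705 cells (6.378%) had 10 or more Gdf15 UMIs and together held 73.0% of the class's Gdf15. In the monocyte/macrophage class 189 cells (11.358%) held 73.9%, and in Gpnmb-high cells 234 cells (9.766%) held 70.1%. The highest single cell had 207 Gdf15 UMIs. The variance of Gdf15 UMIs per microglial cell was 24.6 times the mean, against 2.36 for Atf4, 2.65 for Ddit3 and 1.5 for Trib3. In endothelial cells and in neurons 3 cells each held 67.7% and 63.9% of the Gdf15 UMIs. The ≥10 UMI share in Gpnmb-high cells was 8.24% and 6.36% in Anti-CD8, against 13.9% and 11.9% in IgG.

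Within microglia, Gdf15 was uneven between states. The cluster led by Ccl3 and Ccl4, chemokine genes, had 179 and 193 CPM in Anti-CD8 and 189 and 202 CPM in IgG. The cluster led by Crybb1 and P2ry12, markers of homeostatic microglia, had 154 and 139 CPM in Anti-CD8, against 172 and 182 CPM in IgG. The cluster led by Il1b and Il1rn averaged 48.5 CPM, and the cluster led by Il12b and Cxcl2 averaged 45.4 CPM. Of the Gpnmb-high clusters, the one led by Fabp4 and Mmp12 averaged 137 CPM and the one led by Gpx3 and Cdo1 averaged 89.2 CPM.

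The transcription factors of the pathway were spread widely. Atf4 was found in 81.8% of all cells and was highest in endothelial cells, at 195 and 194 CPM in Anti-CD8 and 188 and 197 CPM in IgG. Microglia averaged 168 ± 4.51 CPM of Atf4, ependymal cells 166 ± 15.5 CPM, monocyte/macrophage cells 160 ± 4.91 CPM, Gpnmb-high cells 136 ± 7.46 CPM, Spp1-high cells 124 ± 5.23 CPM and Ms4a7-positive cells 119 ± 7.49 CPM (SD, n = 4). Neurons were lowest, at 72.6 and 69.4 CPM in Anti-CD8 and 52.9 and 43.4 CPM in IgG. Atf4 thus ordered the classes differently from Gdf15: Gpnmb-high cells held more Gdf15 than endothelial cells in all 4 libraries and less Atf4 in all 4.

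Ddit3, which encodes the ATF4 partner CHOP, was found in 59.05% of cells and was highest in ependymal cells, at 143 and 146 CPM in Anti-CD8 and 186 and 149 CPM in IgG. Microglia held 65.8 and 70.9 CPM of Ddit3 in Anti-CD8, against 74.97 and 75.7 CPM in IgG. Gpnmb-high cells held 59.4 and 58.1 CPM of Ddit3 in Anti-CD8, against 67.9 and 76.4 CPM in IgG. Other classes of at least 200 cells lay between 38.4 CPM of Ddit3 in a class of dendritic cells with B-cell RNA and 111 CPM in pericytes and smooth muscle.

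Trib3, a pseudokinase that ATF4 and CHOP induce, was rare, with a UMI in 6.936% of cells and at most 6 per cell. Endothelial cells were highest, at 9.38 and 12.3 CPM in Anti-CD8 and 13.6 and 11.1 CPM in IgG, and 17.3% of them had a UMI. Trib3 averaged 5.72 ± 0.684 CPM in Gpnmb-high cells, 5.59 ± 1.06 CPM in Spp1-high cells and 3.02 ± 0.385 CPM in microglia, while ependymal cells (0.478 ± 0.196 CPM) and neurons (0.390 ± 0.315 CPM) were near 0 (SD, n = 4). Chac1, an enzyme that breaks down glutathione, had 249 UMIs in 201 cells of the whole data set. Its mean was highest in the dendritic cells with B-cell RNA (0 to 15.4 CPM per library), and was 2.63 ± 2.08 CPM in neurons, 1.37 ± 0.250 CPM in endothelial cells and 0.289 ± 0.064 CPM in microglia (SD, n = 4). In the 255 NK cells, with a median of 8834 UMIs, it had no UMI, which allows up to 1.44% of cells with a UMI at this depth (95% exact binomial interval).

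The effectors that act on amino acids had yet other profiles. Asns, asparagine synthetase, was highest in neurons, at 44.2 and 36.2 CPM in Anti-CD8 and 41.5 and 45.03 CPM in IgG. Among myeloid classes Asns averaged 18.1 ± 1.27 CPM in Spp1-high cells and 13.1 ± 1.10 CPM in Gpnmb-high cells, against 7.28 ± 0.503 CPM in microglia, 7.16 ± 1.959 CPM in monocyte/macrophage cells and 5.70 ± 1.14 CPM in Ms4a7-positive cells (SD, n = 4). Sesn2, a leucine sensor that restrains mTORC1, was highest in ependymal cells among classes of at least 200 cells, at 17.8 and 19.2 CPM in Anti-CD8 and 18.8 and 19.4 CPM in IgG. Sesn2 in microglia was 11.9 and 12.6 CPM in Anti-CD8, against 10.7 and 10.1 CPM in IgG. Among classes of that size Atf4 and Trib3 shared their highest class, as did Ddit3 and Sesn2, while Gdf15, Chac1 and Asns each peaked in a class of its own.

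**Figure D2:**
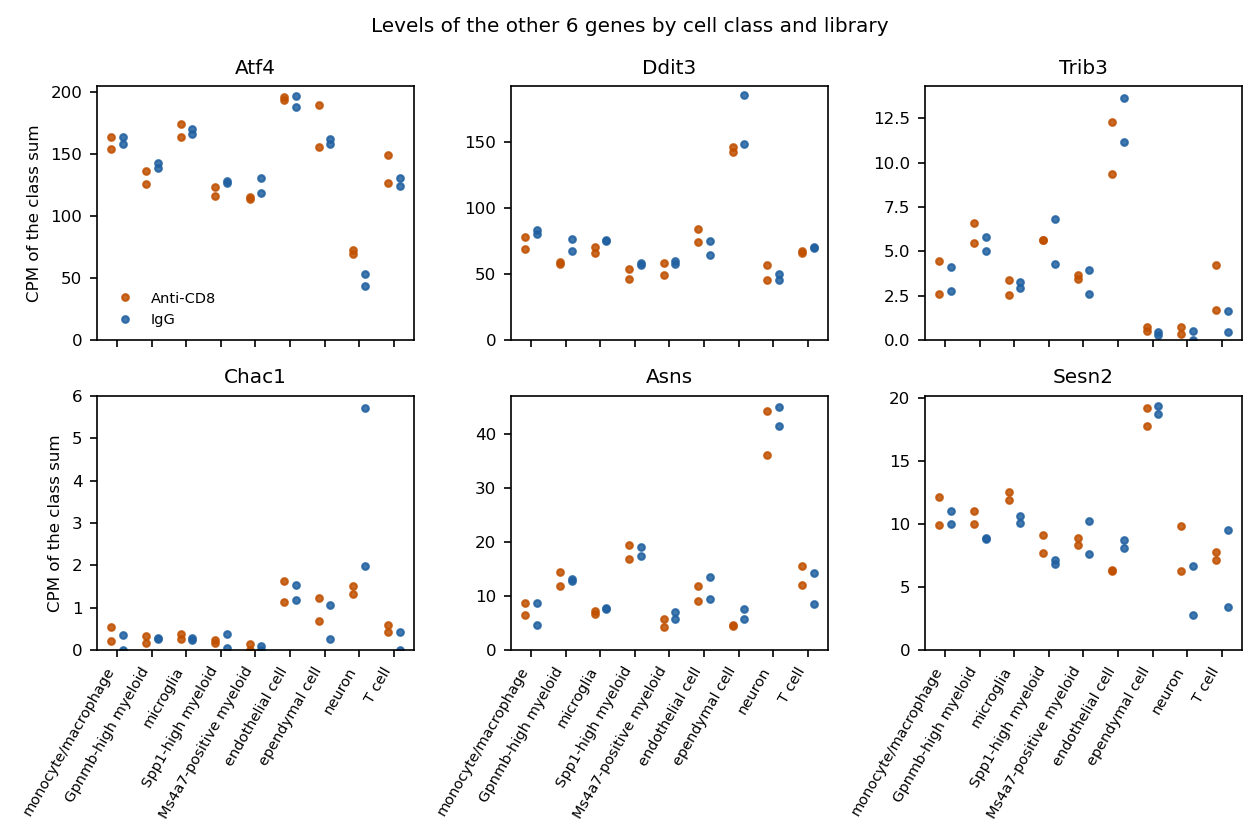
Level of the other 6 genes (y axes, CPM of the class sum, each panel on its own scale from 0) in 9 classes; each point is 1 library, Anti-CD8 in orange at the left and IgG in blue at the right. Atf4 and Trib3 peak in endothelial cells, Ddit3 and Sesn2 in ependymal cells, and Asns in neurons, while Chac1 stays below 6 CPM.

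Across the 25 clusters with enough cells, the genes whose levels followed Gdf15 most closely were Cln8, Rragc, Cebpa, Ctsb and Rap2b (Pearson r of log2(CPM + 1) 0.898, 0.898, 0.887, 0.877 and 0.875 among 8965 genes). Of the other ATF4 target genes Nars and Cebpg came first (0.735 each), then Cebpb (0.694), Slc7a11 (0.669) and Nupr1 (0.648). Atf4 reached 0.387 (rank 1454), Ddit3 0.331, Sesn2 0.326, Trib3 0.241, Asns -0.125 and Chac1 -0.48. Over the 11 myeloid clusters alone the closest were Atp6v1a (0.889), a subunit of the lysosomal proton pump, Stxbp5l (0.886), Neu1 (0.886), a lysosomal sialidase, S100a16 (0.885) and Atp6v0d1 (0.868). There Ddit3 reached 0.740 and Atf4 0.701, while Trib3 (-0.232) and Asns (-0.274) had weak negative values. Trib3, Asns, Chac1 and Sesn2 stayed below the 50 CPM asked of the ranked genes. Clusters share libraries and differ in depth, so these values are descriptions only.

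Of the receptor genes, Gfral was hardly sampled, while Ret was found more often. Gfral had 8 UMIs in 7 cells and Ret 1952 UMIs in 988 cells.

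Setting Anti-CD8 against IgG asks how cells at the lesion differ when CD8 T cells are targeted. Gdf15 was lower in Anti-CD8 in 18 of the 23 classes and clusters where it was fitted, and in all 5 myeloid classes. The clusters are parts of these classes and all share the same libraries, so such counts are not separate observations. The share of all genes with counts this one-sided was not computed. The log2 fold change of Gdf15 was -0.79 ± 0.12 in Gpnmb-high cells, -0.81 ± 0.13 in Spp1-high cells, -0.77 ± 0.18 in Ms4a7-positive cells, -0.53 ± 0.18 in monocyte/macrophage cells and -0.19 ± 0.13 in microglia (edgeR, SE). The groups did not overlap in the first 4, by a small margin in monocyte/macrophage cells, and overlapped in microglia. With 2 libraries per group such a separation is frequent without any difference, and its share over all genes was not counted. Leaving out 1 library gave -1.06 to -0.56 in Gpnmb-high, -1.03 to -0.55 in Spp1-high, -1.09 to -0.49 in Ms4a7-positive and -0.78 to -0.26 in monocyte/macrophage cells, and -0.39 to 0.02 in microglia. No test is given for these values, since the genes were picked with them in view.

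In proliferating cells Gdf15 went the other way, with a log2 fold change of 1.40 ± 0.19 (1.17 to 1.60 with 1 library left out). There 24 cells with 10 or more Gdf15 UMIs held 81.3% of the class's Gdf15. In the microglial cluster led by Kcnj2 and Tex14, Gdf15 was 72.9 and 57.6 CPM in Anti-CD8, against 91.5 and 88.9 CPM in IgG (log2 fold change -0.52 ± 0.10). Depth moved with the antibody as well: the median of Gpnmb-high cells was 27315 and 28750 UMIs in Anti-CD8, against 32692 and 32219 UMIs in IgG, and its part in the result was not tested.

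The other 6 genes are described in the same way. Ddit3 was lower in Anti-CD8 in 19 of 24 classes and clusters, with a log2 fold change of -0.34 ± 0.07 in Gpnmb-high cells, -0.23 in Spp1-high cells and -0.19 ± 0.06 in microglia. Atf4 differed by between -0.33 and 0.55 over 25 classes and clusters, with the highest value in neurons. Sesn2 was higher in 16 of 21, Asns lower in 14 of 21, and Trib3 higher in 9 of 15. These counts overlap in the same way, since the clusters are parts of the classes. Chac1 had enough UMIs for a fit only in microglia (0.25 ± 0.38) and endothelial cells (-0.01 ± 0.47).

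**Figure D3:**
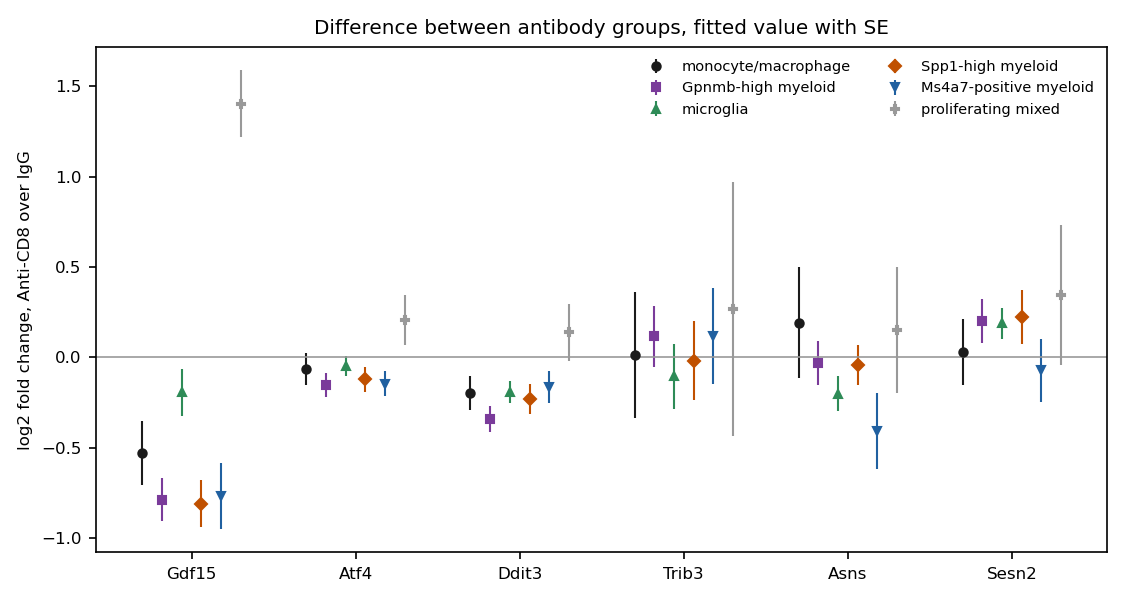
Fitted log2 fold change, Anti-CD8 over IgG, with its SE (y axis) for 6 genes (x axis) in the 5 myeloid classes and in proliferating cells; Chac1 was too rare in most of them. Gdf15 lies below 0 in the 5 myeloid classes and at 1.40 in proliferating cells, and Ddit3 also lies below 0 in the 5 myeloid classes.

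The list of 49 other ATF4 target genes was put through the same comparison. The choice of the 7 genes did not use it, but the list was itself drawn up with earlier results of these data known. Of the 41 to 45 tested per class, none was called in Gpnmb-high, Spp1-high, Ms4a7-positive, microglial or monocyte/macrophage cells by edgeR. Of all genes 0.0147% were called in Spp1-high cells and 0.0% in the other 4. Their median log2 fold change was between -0.07 and 0.01, and that of all genes between -0.002 and 0.004. In simulated microglial sums this fit recovered 6% of 1.2-fold, 40.8% of 1.5-fold and 60% of 2-fold changes. Changes of that size can thus be missed. At an unadjusted p under 0.05, 641 to 1591 genes of all those tested passed per class, and DESeq2 called 1 listed gene in microglia and 0 in the other 4. In the Kcnj2 and Tex14 cluster, where 0.481% of all genes were called, Slc7a5, an amino acid exchanger, rose (0.60 ± 0.11, adjusted p = 0.0217) and Psat1, an enzyme of serine synthesis, fell (-0.80 ± 0.15, adjusted p = 0.0272). In T cells, where 0.918% of all genes were called, Atf3 was the listed gene that rose. No listed gene was called by edgeR in the other classes and clusters fitted, where the share of all genes called was 0.832% in neurons, 0.287% in proliferating cells, 0.0492% in a shallow myeloid class, 0.00701% in ependymal cells and 0.0% in the remaining classes. In the other microglial clusters it was 0.111% (led by Il1b), 0.159% (Crybb1), 0.0235% (Ccl3), 0.00756% (Il12b) and 0.0% (Ifit2), and in the Gpnmb-high clusters 0.031% (Fabp4) and 0.0% (Gpx3).

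To see what else Gdf15-expressing cells express, cells with a Gdf15 UMI were compared with cells without one in the same class and library, as sums per library (8 sums per class). In Gpnmb-high cells Ddit3, Atf4 and Trib3 were all higher with a Gdf15 UMI. Ddit3 was 68.9 and 66.7 CPM in Anti-CD8 and 81.2 and 84.3 CPM in IgG with a Gdf15 UMI, against 49.7 and 50.4 CPM in Anti-CD8 and 54.5 and 69.8 CPM in IgG without. That was a log2 fold change of 0.43 ± 0.05 (adjusted p = 6.73e-05, edgeR). Trib3 was 7.56, 8.94, 7.02 and 6.08 CPM with, against 3.51, 4.79, 4.57 and 3.92 CPM without, in Anti-CD8 1 and 2 and IgG 1 and 2 (0.83 ± 0.15, adjusted p = 0.0014). Atf4 was 150, 134, 158 and 153 CPM with, against 121, 115, 130 and 127 CPM without (0.27 ± 0.04, adjusted p = 0.000275). For each of these 3 genes all 4 libraries moved the same way. Asns (0.30, adjusted p = 0.13; called without IgG replicate 1, adjusted p = 0.0496) and Sesn2 (0.23, adjusted p = 0.304) did not pass, and Chac1 was too rare to test. Of all 12472 genes tested 8.82% were called. In cells of middle depth (percentiles 25 to 75 of their library and class) the call of Trib3 ended (0.58, adjusted p = 0.279), while those of Ddit3 and Atf4 held. With sums per library and cluster, which hold the mix of clusters constant, all 3 calls held (Trib3 0.73, adjusted p = 0.00442), with 6.25% of genes called. Here and below, such sums count the clusters of 1 library as replicates, so their p-values may be too small.

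In monocyte/macrophage cells Trib3 was 3.26, 6.501, 3.61 and 5.44 CPM with a Gdf15 UMI, against 1.99, 2.55, 1.91 and 2.73 CPM without, in the same order of libraries (1.04 ± 0.29). Without a Gdf15 UMI Trib3 was so low that it appears to have passed the filter on low counts through the cells with one. No test is therefore given for it in this class. Atf4 also rose (0.21, adjusted p = 0.0223), and Sesn2 (0.49, adjusted p = 0.0541), Asns (0.55, adjusted p = 0.151) and Ddit3 (0.20, adjusted p = 0.146; called without Anti-CD8 replicate 2, adjusted p = 0.0168) did not pass. Of all 10760 genes 17.2% were called. The Atf4 call ended without Anti-CD8 replicate 1 (0.0776), Anti-CD8 replicate 2 (0.0765) or IgG replicate 1 (0.0806), in cells of middle depth (0.391) and with DESeq2 (0.175). In Spp1-high cells Ddit3 (0.34, adjusted p = 0.00169) and Atf4 (0.22, adjusted p = 0.00208) rose, with 5.45% of 12029 genes called, and both calls ended in cells of middle depth (adjusted p 0.0557 and 0.0733). In Ms4a7-positive cells Ddit3 (0.26, adjusted p = 0.0292) and Atf4 (0.21, adjusted p = 0.0172) rose, with 4.55% of 11530 genes called, but both calls ended with DESeq2 (0.171 and 0.0991) and without Anti-CD8 replicate 1 (0.136 and 0.0815) or IgG replicate 1 (0.277 and 0.0907). That of Ddit3 also ended without IgG replicate 2 (0.0645) and that of Atf4 without Anti-CD8 replicate 2 (0.0605) and in cells of middle depth (0.119).

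Microglia differed. Of 15497 genes 13.7% were called, and of the 5 genes tested Asns (0.25 ± 0.08, adjusted p = 0.0477) and Ddit3 (0.12 ± 0.03, adjusted p = 0.0252) passed by small margins. Asns was 7.01 and 8.88 CPM in Anti-CD8 and 8.55 and 8.404 CPM in IgG with a Gdf15 UMI, against 6.24 and 6.48 CPM in Anti-CD8 and 7.63 and 7.32 CPM in IgG without. The Asns value in cells of middle depth was near 0 (adjusted p = 0.998), and leaving out each of the 4 libraries in turn gave adjusted p from 0.0728 to 0.299. With sums per library and cluster Asns was at 0.33 (adjusted p = 0.00527), where 18.1% of genes were called. The Ddit3 call ended in cells of middle depth (0.227), with sums per library and cluster (0.347) and without Anti-CD8 replicate 2 (0.0681), IgG replicate 1 (0.0971) or IgG replicate 2 (0.174). Atf4 (0.04, adjusted p = 0.397), Trib3 (0.12, adjusted p = 0.590) and Sesn2 (0.09, adjusted p = 0.586) did not pass. With cells of 10 or more Gdf15 UMIs as the tested side, Atf4 in microglia was called (0.19, adjusted p = 0.00763). In ependymal cells none of the 4 genes tested passed, with 1.07% of 11889 genes called.

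The difference between classes was tested itself, in 3 comparisons chosen after these values were seen. For the Gdf15 contrast, microglia minus Gpnmb-high cells gave -0.26 ± 0.05 for Atf4 (adjusted p = 0.00191), -0.34 ± 0.07 for Ddit3 (adjusted p = 0.00413) and -0.73 ± 0.18 for Trib3 (adjusted p = 0.0278), with 3.12% of genes called. With sums per library and cluster, where 0.28% of genes were called, Atf4 kept its call (-0.25, adjusted p = 0.0386) and Ddit3 (adjusted p = 0.16) and Trib3 (adjusted p = 0.361) did not. Microglia minus monocyte/macrophage cells gave -0.18 ± 0.06 for Atf4 (adjusted p = 0.0447), with 11.0% of genes called, and per cluster Atf4 did not pass (0.0949). For Trib3 the value was -0.95 ± 0.28. No test is read from it, since none is given for Trib3 in monocyte/macrophage cells alone.

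**Figure D4:**
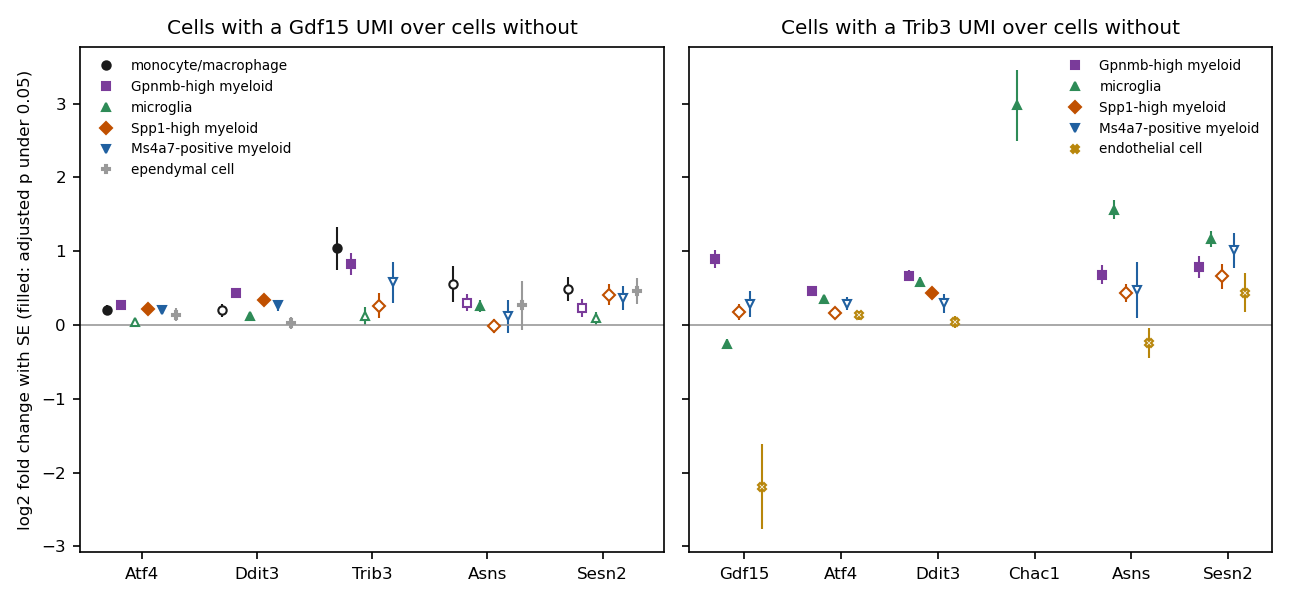
Fitted log2 fold change with SE (y axis) of each gene (x axis), in cells with a Gdf15 UMI over cells without (left) and in cells with a Trib3 UMI over cells without (right), by class; filled symbols passed at an adjusted p under 0.05. In the left panel Gpnmb-high cells have 3 filled symbols, and in the right panel Gdf15 is above 0 in Gpnmb-high cells and below 0 in microglia. No test is read from Trib3 in monocyte/macrophage cells (left) or from Chac1 in microglia and Gdf15 in endothelial cells (right).

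Some of the other ATF4 target genes rose with Gdf15 in each of the 5 myeloid classes tested. In Gpnmb-high cells 12 of 41 were higher and 0 lower, in monocyte/macrophage cells 11 higher and 2 lower of 40, in microglia 12 higher and 1 lower of 43, in Spp1-high cells 9 higher and 0 lower of 40, and in Ms4a7-positive cells 4 higher and 0 lower of 40. The higher calls over all genes were 5.13%, 8.87%, 8.17%, 3.89% and 2.69% in this order. The list's median log2 fold change was 0.13, 0.17, 0.09, 0.10 and 0.11, and that of all genes lay between -0.004 and 0.001. In ependymal cells 0 of 39 were called and the median was -0.02; at an unadjusted p under 0.05, 1042 of all genes passed there. In cells of middle depth 2, 3, 11, 5 and 2 of the list were higher. The share of all genes called there is not given, and fewer cells also lower the number of calls. Leaving out 1 library moved some counts of higher genes by over 1.5 times: in Gpnmb-high cells to 7, 6 and 7 without Anti-CD8 replicate 1, Anti-CD8 replicate 2 and IgG replicate 2, and in microglia to 6 without Anti-CD8 replicate 2. In monocyte/macrophage cells the count was 7, 7, 7 and 5, and in Ms4a7-positive cells 2, 2, 2 and 1, without Anti-CD8 replicate 1, Anti-CD8 replicate 2, IgG replicate 1 and IgG replicate 2.

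Atf3 and Sqstm1 were called in all 5 classes. Atf3, a transcription factor of the same family, was 619 and 518 CPM in Anti-CD8 and 697 and 616 CPM in IgG in Gpnmb-high cells with a Gdf15 UMI, against 409 and 377 CPM in Anti-CD8 and 466 and 403 CPM in IgG without (0.56 ± 0.03, adjusted p = 3.86e-08). Its values elsewhere were 0.56 in Ms4a7-positive, 0.55 in Spp1-high, 0.42 in monocyte/macrophage and 0.32 in microglial cells. Genes of serine and one-carbon metabolism were among those higher in monocyte/macrophage cells: Phgdh (1.01), Psat1 (0.88) and Mthfd2 (0.62). Phgdh was 22.2 and 17.0 CPM in Anti-CD8 and 14.4 and 7.48 CPM in IgG with a Gdf15 UMI there, against 8.71 and 7.44 CPM in Anti-CD8 and 11.5 and 3.72 CPM in IgG without. Atf5, a transcription factor tied to the mitochondrial stress response, rose in Gpnmb-high (0.35) and monocyte/macrophage cells (0.64). The cationic amino acid transporter gene Slc7a1 rose most in microglia (0.51), at 72.3, 76.2, 71.7 and 80.4 CPM with a Gdf15 UMI, against 50.7, 53.8, 48.3 and 58.5 CPM without. Slc7a11, the cystine transporter, fell in microglia (-0.20) and rose in Spp1-high (0.31) and monocyte/macrophage cells (0.31). Cebpb (-0.22) and Jdp2 (-0.33) were the genes of the list that fell in monocyte/macrophage cells. Also higher were Ppp1r15a, Sars, Cars, Aars, Slc7a1, Slc38a2, Mthfd2, Bbc3 and Phgdh in Gpnmb-high cells, Ppp1r15a, Slc38a2, Cars, Slc3a2, Slc7a1 and Phgdh in Spp1-high cells, and Slc3a2 and Bbc3 in Ms4a7-positive cells. The list's other higher genes were Phgdh, Sars, Aars, Yars, Nupr1, Ppp1r15a, Slc38a2, Slc3a2 and Cebpg in microglia and Sars, Aars, Bbc3 and Cars in monocyte/macrophage cells.

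Genes upstream of ATF4 and in neighbouring pathways were tested alongside. Impact, an inhibitor of the kinase GCN2, was called higher in all 5 myeloid classes, at 0.36 in Gpnmb-high, 0.25 in Ms4a7-positive, 0.31 in Spp1-high, 0.39 in microglial and 0.39 in monocyte/macrophage cells. Of the 16 eIF2 kinases and controls it was the only one called in 3 of these classes, joined by Dele1 (0.25) in microglia and by Eif2ak4 (0.36) and Oma1 (0.46) in monocyte/macrophage cells. The mitochondrial chaperone gene Hspa9 rose in Gpnmb-high (0.28), Spp1-high (0.25), microglial (0.15) and monocyte/macrophage cells (0.45). Of 21 genes of endoplasmic reticulum chaperones and other unfolded protein arms 0 to 4 were called per myeloid class, and Herpud1, a part of protein disposal there, fell in Gpnmb-high (-0.20), Spp1-high (-0.23) and monocyte/macrophage cells (-0.56). NRF2 target genes, an oxidative stress group, were higher in 9 of 13 in Gpnmb-high cells (Srxn1 0.88, Gclm 0.61), 8 of 13 in Spp1-high cells, 5 of 12 in monocyte/macrophage cells and 2 of 12 in Ms4a7-positive cells, with 0 lower in these 4; in microglia 1 of 13 was higher (Osgin1, 1.07) and 1 lower (G6pdx, -0.15). Of the p53 target genes 5 of 14 were higher in Gpnmb-high cells (Phlda3 1.69, Plk2 0.57), while microglia had 4 higher and 3 lower of 15, Cdkn1a and Mdm2 among the lower.

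Other gene groups, depth and marker sums moved with the Gdf15 contrast. Of 23 dissociation and immediate early genes 11 were higher and 1 lower in Gpnmb-high and likewise in Spp1-high cells, 6 higher and 1 lower in Ms4a7-positive cells, 5 higher and 8 lower in microglia, and 1 higher and 13 lower in monocyte/macrophage cells. Cells with a Gdf15 UMI were deeper, with library medians of 29500 to 34544 UMIs against 25955 to 31412 in Gpnmb-high cells, 17054 to 22506 against 16479 to 21477 in microglia, and 17435 to 21707 against 13737 to 17448 in monocyte/macrophage cells. In the last of these the 11 macrophage markers summed to 30249 to 35460 CPM with a Gdf15 UMI, against 22885 to 26936 CPM without. Ependymal cells with a Gdf15 UMI held 393 to 555 CPM of the 11 monocyte/macrophage markers, against 121 to 232 CPM without. Among called genes with a mean of at least 20 CPM, Spp1 (2.93), Il1b (2.69) and Cd86 (2.38) led their higher genes. The part of these in the results was not tested, except that the values for cells of middle depth stand above.

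Rises and falls in this paragraph are ranked among called genes with a mean of at least 20 CPM. In microglia Gpnmb, a gene of phagocytic and lipid-handling cells, had the largest rise of these (0.98). With a Gdf15 UMI it was 235 and 304 CPM in Anti-CD8 and 216 and 242 CPM in IgG. Without one it was 91.9 and 160 CPM in Anti-CD8 and 159 and 103 CPM in IgG. Gpr157 (0.81), Optn (0.71), Sgk1 (0.61) and Fam219a (0.61) followed, while Tafa1 (-1.04), Postn (-1.0), Tnip3 (-0.73), Klf2 (-0.73) and Il1rn (-0.58) fell most. In Gpnmb-high cells Fabp4, a fatty acid carrier, rose most among genes of that level (1.51). With a Gdf15 UMI it was 76.2 and 69.0 CPM in Anti-CD8 and 78.7 and 92.9 CPM in IgG. Without one it was 30.6 and 20.4 CPM in Anti-CD8 and 31.2 and 29.7 CPM in IgG. Mreg (1.18), Rps6ka2 (1.09), Cxcl2 (1.01) and Plpp3 (1.0) followed, and Il1b (-0.65) and Cytip (-0.53) fell. Ighm had the most negative value there (-3.84), carried by 1 sum: the cells without a Gdf15 UMI of Anti-CD8 replicate 1 held 187 CPM. In monocyte/macrophage cells Plpp3 (2.23), Npy (2.11), Cd24a (2.02) and Fabp4 (1.86) rose, and Ccr1 (-1.60) and the MHC class II genes H2-Aa (-1.49), H2-Eb1 (-1.47) and H2-Ab1 (-1.44) fell. H2-Aa was 516 and 581 CPM in Anti-CD8 and 327 and 663 CPM in IgG with a Gdf15 UMI, against 1441 and 1515 CPM in Anti-CD8 and 1394 and 1374 CPM in IgG without. Chemokine and cytokine genes changed in both directions in Ms4a7-positive cells, with Ccl3 (0.90) and Tnf (0.73) higher and Ccl5 (-1.07) lower.

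The Gdf15 contrast was not found to differ between antibody groups for any of the genes tested: the smallest adjusted p of their interaction terms was 0.894 in the 6 classes. Over all genes 0.0641% were called in Gpnmb-high, 0.00867% in Ms4a7-positive, 0.0% in Spp1-high, 0.0252% in ependymal, 0.00645% in microglial and 0.0836% in monocyte/macrophage cells. Of the 159 listed genes Klf2 alone was called, in monocyte/macrophage cells.

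Cells with a Trib3 UMI gave a second view of the same genes. In microglia 110 to 185 cells per library had one. Asns was 20.0 and 16.6 CPM in Anti-CD8 and 17.4 and 23.2 CPM in IgG with a Trib3 UMI, against 5.82 and 6.47 CPM in Anti-CD8 and 7.30 and 6.37 CPM in IgG without (1.56 ± 0.13, adjusted p = 4.32e-08). Sesn2 was 30.2, 25.0, 23.2 and 17.9 CPM with, against 10.7, 11.6, 10.0 and 9.64 CPM without, in Anti-CD8 1 and 2 and IgG 1 and 2 (1.17 ± 0.11, adjusted p = 1.88e-07). Ddit3 (0.59 ± 0.06) and Atf4 (0.35 ± 0.05) rose too, where 3.73% of all 15441 genes were higher. Chac1 was 0.785, 2.66, 1.38 and 1.38 CPM with, against 0.220, 0.218, 0.166 and 0.198 CPM without. It is so rare that it passed the filter on low counts through the cells with a Trib3 UMI, so no test is given for it.

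Gdf15 was the exception in microglia. It was 78.9 and 71.9 CPM in Anti-CD8 and 63.0 and 116 CPM in IgG with a Trib3 UMI, against 97.6 and 86.6 CPM in Anti-CD8 and 90.7 and 119 CPM in IgG without, lower in 4 of 4 libraries (-0.26 ± 0.07, adjusted p = 0.0135). The call ended without Anti-CD8 replicate 1 (adjusted p = 0.0619), Anti-CD8 replicate 2 (0.0591) or IgG replicate 1 (0.136), in cells of middle depth (-0.26, adjusted p = 0.614) and with doublets kept (-0.09, adjusted p = 0.654), and per library and cluster the value was 0.04 ± 0.15 (adjusted p = 0.947). In Gpnmb-high cells, where 68 to 108 cells per library had a Trib3 UMI, Gdf15 was higher in 4 of 4 libraries. There it was 249 and 106 CPM in Anti-CD8 and 174 and 235 CPM in IgG with a Trib3 UMI, against 77.4 and 62.9 CPM in Anti-CD8 and 142 and 128 CPM in IgG without (0.90 ± 0.13, adjusted p = 0.000135). Per library and cluster it was 0.86 (adjusted p = 0.00086), and leaving out 1 library gave 0.64 to 1.11.

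Sesn2 (0.79), Asns (0.68), Ddit3 (0.67) and Atf4 (0.46) also rose with Trib3 in Gpnmb-high cells, so all 5 genes tested were higher, where 3.63% of 12412 genes were. In cells of middle depth the calls of Sesn2 (1.03, adjusted p = 0.0528) and Asns (0.61, adjusted p = 0.258) ended. Tested directly, the Trib3 contrast of microglia minus Gpnmb-high cells was -1.15 ± 0.17 for Gdf15 (adjusted p = 0.000431) and 0.90 ± 0.18 for Asns (adjusted p = 0.00882), with 1.16% of genes called. With sums per library and cluster these were -0.83 and 0.72, both at an adjusted p of 0.641, and 0.0101% of genes were called. The difference for Gdf15 thus held its direction and lost its call in these sums, where hardly any gene was called. Whether the mix of clusters or the smaller sums account for the lost call was not tested.

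Spp1-high cells had Ddit3 higher with a Trib3 UMI (0.44, adjusted p = 0.00623), where 0.274% of 12051 genes were called, and the call ended without Anti-CD8 replicate 2 (adjusted p = 0.169). None of the 5 genes tested passed in Ms4a7-positive cells, with 0.0176% of 11336 genes called. In endothelial cells, the class with the most Trib3, 2.53% of 11993 genes were called and none of the 5 tested here. Gdf15 was at -2.19 ± 0.58 there, and at -3.07 without IgG replicate 1. A few cells held most of the Gdf15 UMIs of this class, as given above, so no test is read from these Gdf15 values.

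Other ATF4 target genes followed Trib3 closely. In microglia 31 of 44 were higher and 0 lower (median 0.44, that of all genes -0.01), and in Gpnmb-high cells 23 of 42 were higher and 1, Jdp2, lower (median 0.35, all genes 0.00). In Spp1-high cells 4 of 40 were higher, Mthfd2 (0.75), Sars, Eif4ebp1 and Nupr1, and in Ms4a7-positive cells 1 of 40, Mthfd2 (0.91). In endothelial cells 0 of 38 were called, where 1566 of all genes passed at an unadjusted p under 0.05 and DESeq2 likewise called 0. In cells of middle depth the higher calls were 18 in microglia, 4 in Gpnmb-high, 2 in Spp1-high and 0 in Ms4a7-positive cells. The share of all genes called there is not given, and fewer cells also lower the number of calls. The list's median there was 0.50, 0.34, 0.26 and 0.25 in this order, and that of all genes between -0.012 and 0.005. With sums per library and cluster 24 and 20 were higher in microglia and Gpnmb-high cells, where 5.79% and 3.12% of all genes were called in either direction. The Spp1-high count was 1 without Anti-CD8 replicate 2, IgG replicate 1 or IgG replicate 2, and without Anti-CD8 replicate 1 the Ms4a7-positive count was 0.

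Mthfd2, a mitochondrial enzyme of one-carbon metabolism, was called in all 4 myeloid classes of this contrast. In microglia it was 67.9 and 72.8 CPM in Anti-CD8 and 75.7 and 85.0 CPM in IgG with a Trib3 UMI, against 27.8 and 31.3 CPM in Anti-CD8 and 36.9 and 27.5 CPM in IgG without (1.295 ± 0.08, adjusted p = 1.67e-10). Also higher in microglia were the neutral amino acid transporter gene Slc1a4 (1.78), Atf5 (0.98), the transfer RNA synthetase genes Cars (0.81), Iars (0.60) and Sars (0.58), the serine pathway genes Shmt2 (0.80), Phgdh (0.47) and Psat1 (0.36), Vegfa (0.74) and the translation repressor gene Eif4ebp1 (0.73). The remaining higher genes lay between 0.20 and 0.74 and were Gpt2, Aldh18a1, Bbc3, Pck2, Xpot, Eprs, Slc1a5, Mthfd1l, Gars, Tars, Yars, Aars, Slc7a5, Nars, Ero1a, Nupr1, Slc7a11, Cebpg, Slc3a2 and Slc38a2. Atf3, which was called with Gdf15 in all 5 myeloid classes, was not called with Trib3 in microglia: it was 816, 731, 1071 and 838 CPM with a Trib3 UMI, against 843, 772, 822 and 872 CPM without. In Gpnmb-high cells Mthfd2 (0.87), Ddit4 (0.80), Aldh18a1 (0.67), Atf5 (0.64), Yars (0.62), Slc7a1 (0.61) and Aars (0.60) led the rise, Slc7a5, Xpot, Pck2, Psat1, Cars, Eif4ebp1, Gars, Iars, Phgdh, Nupr1, Sars, Nars, Eprs, Atf3 (0.26), Slc3a2 and Sqstm1 also rose, and Jdp2 fell (-0.37).

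The chaperone gene Hspa9 rose with Trib3 in microglia (0.51), Gpnmb-high (0.65) and Spp1-high cells (0.34). Of the 21 endoplasmic reticulum genes 2 rose in microglia, Hspa5 (0.28) and Ern1 (0.34), and 3 in Gpnmb-high cells. NRF2 target genes were higher in 4 of 13 in microglia and 7 of 13 in Gpnmb-high cells. Of the p53 target genes Plk2 (0.68), Cdkn1a (0.53), Mdm2 (0.40) and Bax (0.34) rose in microglia and Fas fell (-0.44), so that Cdkn1a and Mdm2 were higher with a Trib3 UMI and lower with a Gdf15 UMI.

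Cells with a Trib3 UMI were deeper too, with medians of 20210 to 27125 UMIs per cell against 16525 to 21482 in microglia and of 28013 to 38179 against 27263 to 32123 in Gpnmb-high cells. Microglia with a Trib3 UMI held 4973 to 5455 CPM of the 10 microglia markers, against 5887 to 6701 CPM without. Among called genes with a mean of at least 20 CPM, Mmp12 (2.06) led their higher and Cxcl13 (-1.99) their lower genes. The part of depth and of these marker sums in the results was not tested beyond cells of middle depth.

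**Figure D5:**
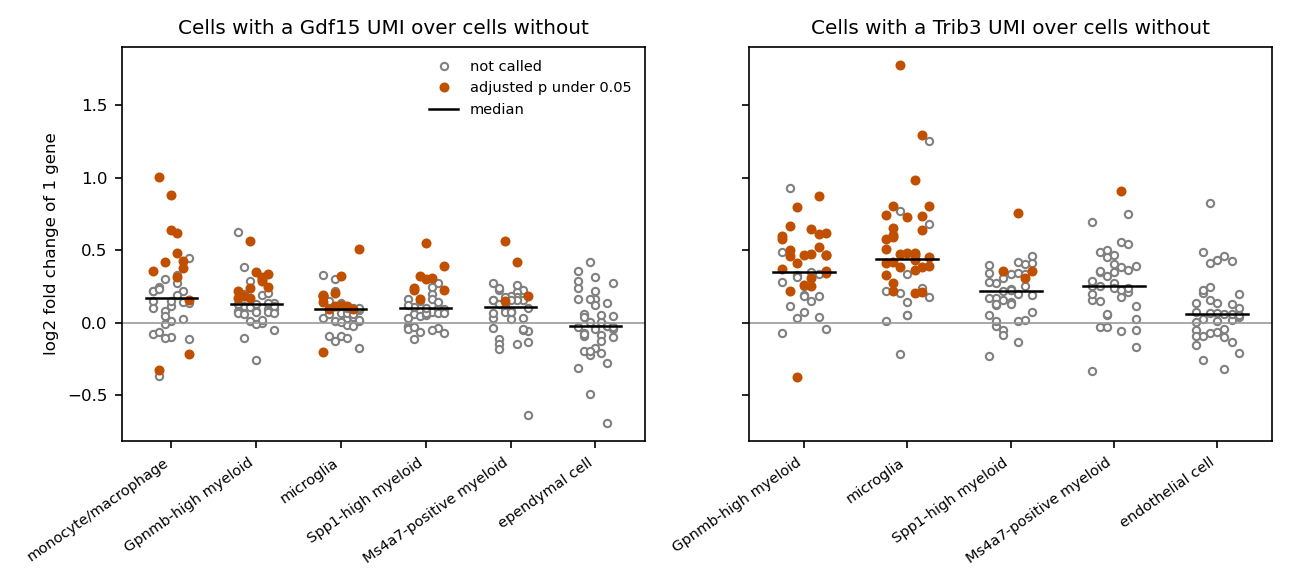
Fitted log2 fold change (y axis) of each other ATF4 target gene, 1 point per gene, in cells with a Gdf15 UMI over cells without (left) and with a Trib3 UMI over cells without (right), by class (x axis); filled points passed at an adjusted p under 0.05 and lines are medians. The median is 0.44 in microglia in the Trib3 contrast and 0.09 in microglia in the Gdf15 contrast.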

How the data were processed

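Single-cell RNA of 4 libraries (Anti-CD8 and IgG, 2 each) was analysed. The authors deposited filtered gene by barcode matrices of UMI counts, made with Cell Ranger 7.1.0 on GRCm39 per the submitters' processing notes; whether intronic reads were counted is not given in the sources used here. Each library held 6586 to 8482 barcodes. Barcodes with under 300 genes or over 20% mitochondrial UMIs were dropped, then the highest Scrublet scores, at 0.8% per 1000 cells, as doublets (Scrublet's own threshold marked 0 to 3). Cells were clustered with scanpy 1.11.5 (3000 variable genes, 30 components, 15 neighbours, Leiden resolution 1.0) in Python 3.11.15. Clusters were named by marker lists, and a cluster whose leading genes went against its name stayed unnamed, a choice made after seeing them.

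Counts were summed per library and class (at least 20 cells) and tested with edgeR 4.0.16 (quasi-likelihood, TMM, filterByExpr) in R 4.3.3, with Benjamini-Hochberg adjustment over all genes and a threshold of 0.05. In the contrasts of cells with and without a UMI, the library was a block. DESeq2 1.42.0, other filters, thinning and left-out libraries were alternatives. Contrasts were repeated on cells of middle depth (percentiles 25 to 75) and on sums per library and cluster (at least 10 cells). In the latter each library and cluster was a block, so clusters of the same library counted as replicates. The fits were tested on simulated data. The labels call the 2 libraries of a group biological replicates but do not give the mice behind them, so p-values cover only the spread that these libraries show.

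Named genes were the 7 genes, every called gene of the list of other ATF4 targets, the 3 called genes with the smallest p of each other list (others are given as counts or were named after their values were seen) and, in the Gdf15 contrast, from the 5 called genes of largest rise and the 5 of largest fall at 20 CPM or more. The 7 genes and the 10 gene lists were chosen with earlier results of these data known.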

Additional observations from a re-analysis of the deposited data

Results flagged for a closer look

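In monocyte/macrophage cells the Gdf15 contrast of Klf2, an immediate early transcription factor, differed between the antibody groups: its interaction, Anti-CD8 minus IgG, was -0.93 on the log2 scale. The next results are differences of a contrast between cell classes, each tested itself except where stated. With a Trib3 UMI over without, microglia minus Gpnmb-high cells differed by 0.90 for Asns and by -1.15 for Gdf15. With a Gdf15 UMI over without, microglia minus Gpnmb-high cells differed by -0.73 for Trib3, by -0.34 for Ddit3 and by -0.26 for Atf4. Microglia minus monocyte/macrophage cells differed in the Gdf15 contrast by -0.18 for Atf4. For Trib3 the value was -0.95, from which no test is read. With sums per library and cluster, of the class differences with a test the one of Atf4 between microglia and Gpnmb-high cells kept its call, and the others did not. Gdf15 in proliferating cells was higher in both Anti-CD8 libraries than in both IgG ones (log2 fold change 1.40). In 4 myeloid classes both Anti-CD8 libraries were lower, and this difference between classes was not tested. Such a separation is frequent with 2 libraries per group, and its share over all genes was not counted.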

How the results depend on the processing

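The counts below are genes of the list of other ATF4 targets. The share of all genes called is not given for each repeat, so a changed count is not set against that of all genes. The values of the 7 genes kept direction and side of the threshold in 275 of 337 repeats of the Gdf15 contrast, 192 of 212 of the Trib3 contrast and 7 of 15 of the class differences. Between antibody groups all 5 myeloid classes had 0 calls in either direction. Leaving out 1 library gave 0 to 2 lower and 0 to 1 higher in Gpnmb-high cells, 0 to 1 lower in Ms4a7-positive cells, 0 to 1 lower in Spp1-high cells and 0 to 1 lower in microglia. With no filter on low counts 1 was lower in Ms4a7-positive cells, and 2 were lower and 1 higher in microglia; DESeq2 called 1 lower in microglia. Whether the replicate numbers pair the libraries is not stated, and 2 pairs do not settle it (correlation of same-numbered deviations -0.123 to 0.313 over the classes and clusters): with them as a replicate block 1 gene was lower in Spp1-high cells, and with the crossed pairing, chosen after seeing the data, 1 was lower in microglia.

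For the Gdf15 contrast, higher calls in cells of middle depth were 2 in Gpnmb-high (12 in the whole class), 2 in Ms4a7-positive (4), 5 in Spp1-high (9) and 3 in monocyte/macrophage cells (11), and lower calls 1 in Ms4a7-positive (0), 2 in microglia (1) and 0 in monocyte/macrophage cells (2). DESeq2 gave 5, 2 and 5 higher in Gpnmb-high, Ms4a7-positive and monocyte/macrophage cells, and 0 and 1 lower in microglia and monocyte/macrophage cells. Leaving out 1 library gave 6 to 9 higher in Gpnmb-high, 1 to 2 in Ms4a7-positive, 6 to 12 in microglia, 5 to 7 in monocyte/macrophage and 0 to 1 in ependymal cells, and 1 to 2 lower in monocyte/macrophage and 0 to 1 in ependymal cells. Without the library block the higher calls were 3, 1, 4, 2 and 7 in Gpnmb-high, Ms4a7-positive, Spp1-high, microglial and monocyte/macrophage cells, and the lower calls 0 in microglia and 1 in monocyte/macrophage cells. No filter on low counts gave 2 higher in Ms4a7-positive cells and 1 higher and 1 lower in ependymal cells, kept doublets 1 higher in ependymal cells, at least 2 Gdf15 UMIs 1 lower in Gpnmb-high cells, at least 10 Gdf15 UMIs 5 higher in Spp1-high cells, and sums per library and cluster 0 lower in microglia.

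For the Trib3 contrast, cells of middle depth gave 18 higher in microglia (31), 4 in Gpnmb-high (23), 2 in Spp1-high (4) and 0 in Ms4a7-positive cells (1). The 1 lower gene in Gpnmb-high cells was 0 there, with DESeq2, without the library block, with sums per library and cluster and in a range of 0 to 1 when 1 library was left out. In Spp1-high cells DESeq2 gave 1, no library block 1, and leaving out 1 library 1 to 3 higher. Leaving out 1 library gave 0 to 1 higher in Ms4a7-positive and endothelial cells and 0 to 1 lower in microglia.

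A direction turned in 14 repeats of the Gdf15 contrast, 8 of the Trib3 contrast and 2 of the class differences. Of these, 2 were of called values: Asns in the Gdf15 contrast of microglia was -0.0017 in cells of middle depth, and Gdf15 in the Trib3 contrast of microglia was 0.0376 with sums per library and cluster. The others were of values not called. In the Gdf15 contrast Asns was -0.0197 with doublets kept and -0.1594 to 0.2643 with 1 library left out in Ms4a7-positive cells, 0.1122 in cells of middle depth, 0.1445 with at least 10 Gdf15 UMIs and -0.0785 to 0.0122 with 1 library left out in Spp1-high cells, and -0.0202 to 0.4433 with 1 library left out in ependymal cells. Ddit3 in ependymal cells was -0.0104 with no filter, -0.0189 with at least 2 Gdf15 UMIs and -0.0329 to 0.0619 with 1 library left out. In microglia Sesn2 was -0.0743 to 0.1774 with 1 library left out and Atf4 -0.0036 with sums per library and cluster. In the Trib3 contrast Gdf15 in cells of middle depth was -0.1185 in Ms4a7-positive and -0.1503 in Spp1-high cells, there -0.004 to 0.3142 with 1 library left out. In endothelial cells of middle depth Asns was 0.1092 and Ddit3 -0.0706, and Ddit3 was -0.0423 with doublets kept and -0.0229 to 0.0932 with 1 library left out. Microglia minus Gpnmb-high cells with sums per library and cluster gave 0.0109 for Ddit3 (Trib3 contrast) and 0.1443 for Asns (Gdf15 contrast). The antibody differences of the 7 genes turned in 31 of 443 repeats. One of these, Gdf15 in proliferating cells at -0.0727 without cells of 10 or more Gdf15 UMIs, removes the molecules it measures, so a smaller value is built in. The causes were not tested. Among the 7 genes the calls of Asns and Ddit3 in the Gdf15 contrast of microglia also ended with DESeq2 (adjusted p 0.347 and 0.14), and that of Gdf15 in the Trib3 contrast of Gpnmb-high cells ended without the library block (0.0641). Thinning to 2000 or 5000 UMIs in place of 3000 gave Gdf15 shares of 10.2% and 15.8% in microglia, 12.8% and 21.7% in Gpnmb-high and 17.1% and 27.5% in monocyte/macrophage cells, 5.31% at 2000 in Ms4a7-positive cells and 11.8% at 5000 in Spp1-high cells. With 2 libraries per group, antibody differences up to 2-fold may go undetected at this depth, those of genes with few UMIs among them. In simulated microglial sums the fit recovered 60% of 2-fold changes.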

Other observations

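T cells and neurons were the classes with the most genes called between the antibody groups, at 93 of 10126 and 116 of 13943. In T cells Atf3, an ATF4 target and immediate early gene, rose in Anti-CD8 over IgG by 1.34 ± 0.16 on the log2 scale (edgeR adjusted p = 0.00887), and so did Ret (1.25), the co-receptor gene of GDF15, Nfkbia (1.06), Klf4 (1.05), Ern1 (1.03), Egr1 (0.97) and Jun (0.70). The T cell class differed in makeup, with a Cd8b1 UMI in 37.3% and 34.1% of its cells in Anti-CD8, against 84.4% and 72.5% in IgG, and a Cd4 UMI in 17.7% and 17.7% in Anti-CD8, against 3.58% and 10.4% in IgG. The part of this in the gene differences was not tested. In neurons 8 immediate early genes were higher in Anti-CD8: Fosb (1.52), Klf2 (1.42), Klf4 (1.36), Fos (1.13), Jun (1.01), Junb (0.91), Klf6 (0.80) and Btg2 (0.77). Markers of other cell types moved with them in the neuron class. The 11 monocyte/macrophage markers summed to 999 and 950 CPM in Anti-CD8, against 433 and 326 CPM in IgG, the 10 microglia markers to 368 and 527 CPM in Anti-CD8, against 216 and 225 CPM in IgG, and the 10 endothelial markers to 343 and 206 CPM in Anti-CD8, against 60.4 and 156 CPM in IgG. The part of these in the result was not tested.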
